A study of Mus musculus with 6 samples.

Results

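All 4 arrays of myotubes exposed to sugarcane top ethanolic extract (STEE) were pooled over dose and compared with the 2 arrays of untreated myotubes, which takes in all 6 arrays of the series. The myotubes came from C2C12, a mouse muscle cell line whose myoblasts stop dividing and fuse into multinucleated, contractile fibres when serum is lowered. Cells had been differentiated for 6 days in 2% horse serum. The treated arrays were STEE30-M (30 µg/mL, 2 arrays) and STEE50-M (50 µg/mL, 2 arrays), each exposed for 6 h in serum-free Opti-MEM, and the untreated arrays were Ctrl-M. The control cells were also at day 6 of differentiation, but their labels give no time for the 6 h of exposure. Neither the medium of the control cells during those hours nor a vehicle for them is given in the sources used here. The extract stock was made up in an ethanol solution. The extract therefore cannot be told apart from the change to serum-free medium or from the solvent. The assay was a Clariom S Mouse expression array of total RNA, and values are log2 signals. Whether the arrays of a group came from separate cultures is stated differently in the methods (biological replicates) and in the series' design (duplicates), so the p-values cover the spread among these 6 arrays and no more.

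The extract holds caffeoylquinic acids, feruloylquinic acid and the flavone glucoside isoorientin, and the study asked whether it acts on the mitochondria of muscle cells. In muscle, mitochondrial content is set largely by the coactivator PGC-1α (gene *Ppargc1a*), which works with nuclear respiratory factors to raise the transcription of respiratory chain subunits and of the proteins that copy and transcribe mitochondrial DNA. Cyclic AMP, produced by adenylyl cyclases and broken down by phosphodiesterases, induces *Ppargc1a* through CREB. Plant polyphenols are also known to engage NRF2, a transcription factor that pairs with small Maf proteins on antioxidant response elements.

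The median log2 signal of the arrays lay between 5.70 and 5.77, and any 2 arrays correlated at 0.991 to 0.994 across probe sets. The untreated pair correlated at 0.994, pairs of treated arrays at 0.992 on average and treated with untreated arrays at 0.993. The first principal component held 25.9% of the variance and did not separate treated from untreated arrays. The 9 myotube markers were at a mean of 14.94 and 15.08 in the untreated arrays and at 14.95, 15.24, 15.06 and 15.75 in the treated ones. Markers of proliferation were bright, at means of 11.94 to 12.66. Those of osteoblasts lay at 5.37 to 5.68 and those of epithelium at 4.95 to 5.46. Markers of adipocytes, endothelium and hepatocytes lay at 3.62 to 4.29 on all 6 arrays, under the background level of 5.32. That level is the 95th percentile of 1448 probe sets for odorant, vomeronasal and taste receptors, and 12055 of the 22206 probe sets (54.3%) lay above it. The number of arrays limits the precision. Above background the median standard error of a log2 fold change was 0.197, and the median half-width of its 95% interval was 0.443. In bulk RNA, fewer cells of a type and less RNA per cell cannot be told apart.

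No probe set separated the treated from the untreated arrays after adjustment. In limma, 0 of 22206 had a Benjamini-Hochberg p under 0.05, and 1026 (4.62%) had an unadjusted p under 0.05, where 1110.3 would on average with no difference. All 1026 also passed the study's fold limit, read as a linear fold of at least 1.2. Of these, 455 were higher in the treated arrays (2.05%) and 571 were lower (2.57%). With each array centred on its median, the split was 510 higher and 507 lower, and after quantile normalization it was 521 and 547. Above background 342 passed (2.84%), 160 higher (1.33%) and 182 lower (1.51%), against 684 at or below it (6.74%). Without Ctrl-M replicate 1 the counts were 356 higher and 370 lower. A gene past these thresholds is named a call below, and calls of this kind were no more frequent than p-values under 0.05 with no difference would be.

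Most differences were small. Among the higher probe sets, 99 lay between 1.2-fold and 1.4-fold, 290 between 1.4-fold and 1.7-fold, 48 between 1.7-fold and 2-fold and 18 at 2-fold or more, and the lower ones numbered 123, 362, 76 and 10. A second count asked for all 4 treated arrays to lie on the same side of both untreated arrays, with no distribution assumed. It held for 2764 probe sets (12.4%), 1261 higher (5.68%) and 1503 lower (6.77%). With no difference, each direction would hold in 1 of the 15 ways to split 6 arrays into 4 and 2, a share of 0.0667. The count was thus no larger than arrays with no difference would be expected to give. Of the 1026 calls 908 met it, but a small p itself favours arrays that do not overlap. For a single value, the 15 splits allow no exact permutation p under 0.0667. Fitted dose by dose, 220 of the 1026 probe sets passed at both doses, 255 at 30 µg/mL alone, 307 at 50 µg/mL alone and 244 at neither. Of all 22206, 4.09% passed at 30 µg/mL and 5.05% at 50 µg/mL, and these fits share the 2 untreated arrays. The doses themselves differed at the thresholds for 41 of the 1026, where 1023 of all 22206 did (4.61%). None of the 22206 had an adjusted p under 0.05 between the doses.

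**Figure D1:**
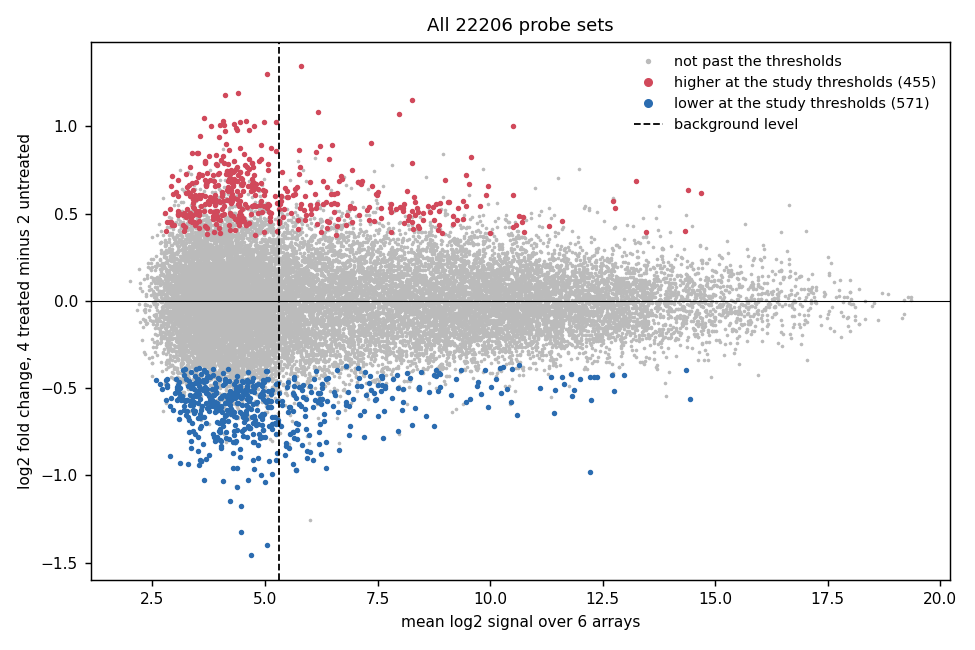
Log2 fold change of the 4 treated arrays against the 2 untreated arrays (vertical axis) by mean log2 signal over the 6 arrays (horizontal axis), 1 point for each of 22206 probe sets. The 455 higher and 571 lower probe sets crowd to the left of the dashed background level of 5.32, where 684 of the 1026 lie.

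The smallest p of all belonged to *Gm2244*, a predicted gene at chr14:19533700-19549958 of GRCm38.p6 that was chosen here after its values were seen. Its log2 signals were 5.70 and 5.64 in Ctrl-M, 4.12 and 4.36 in STEE30-M and 4.03 and 4.34 in STEE50-M. The treated arrays thus lay more than 1 log2 unit under the untreated ones, at a difference of -1.46 (standard error 0.18, adjusted p = 0.275). Its mean of 4.70 lay under the background level, and no role is annotated for it in the sources used here. Every other probe set had an adjusted p of 0.998 or more.

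The genes described next led the list of named genes above background, 12 higher and 12 lower, picked for the largest moderated t among those whose 4 treated arrays cleared both untreated arrays. Their values are thus a description of the arrays that chose them. The 12 higher genes were 1.51-fold to 1.88-fold higher (standard errors of 0.16 to 0.25 in log2 units) and the 12 lower ones 1.48-fold to 1.83-fold lower (0.16 to 0.23). Each of the 24 passed the thresholds at either dose taken alone. Between the doses, 0 of the 24 passed, the smallest unadjusted p being 0.115, and the log2 difference ran from -0.33 to 0.46. The fit that chose the genes counts a difference between doses as spread, so it favoured genes alike at both doses. These counts by dose therefore cannot tell whether the dose matters. Leaving out each array in turn, 18 of the 24 kept their call.

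**Figure D2:**
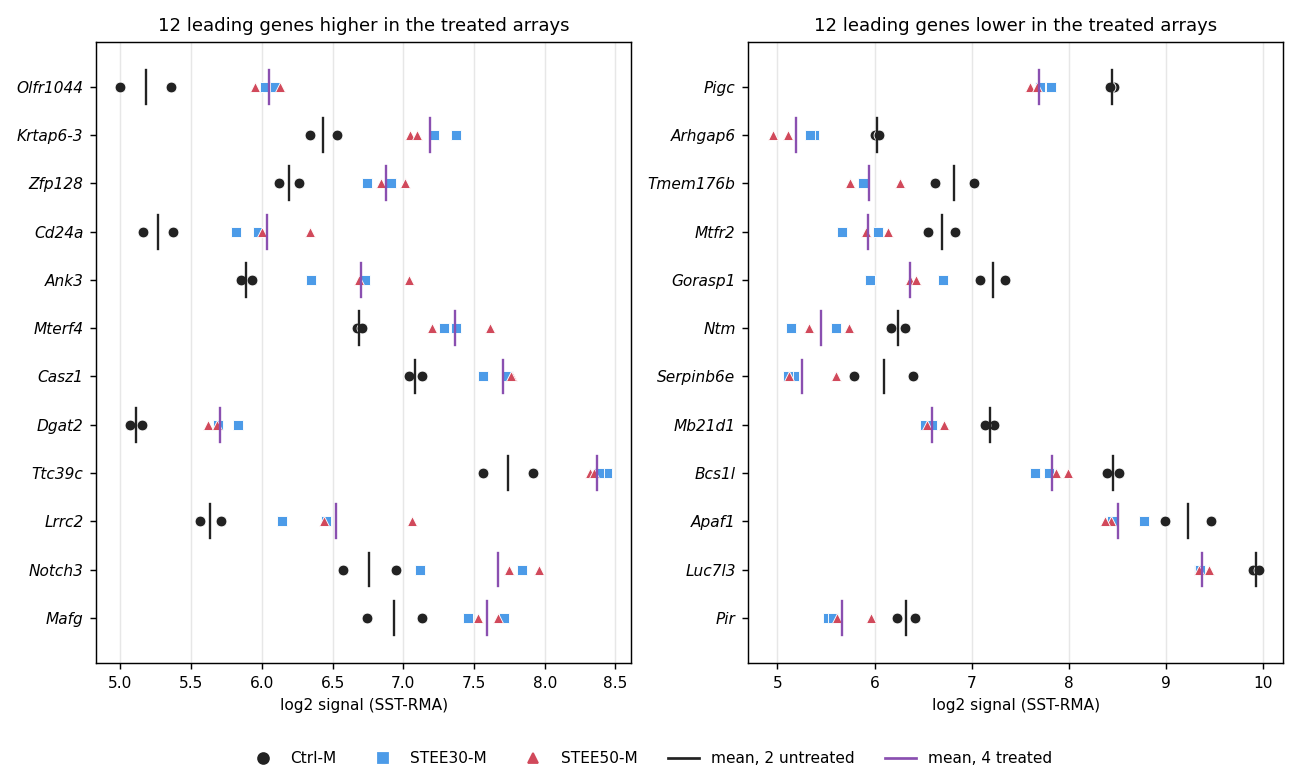
Log2 signal (horizontal axis) of the 12 leading higher and 12 leading lower genes on each array, circles for Ctrl-M, squares for STEE30-M and triangles for STEE50-M, with a bar at the mean of the 2 untreated and of the 4 treated arrays. In each row the treated arrays lie on a single side of both untreated arrays, by the rule that chose the genes. Squares and triangles are mixed in some rows, such as *Olfr1044*, and apart in others, such as *Arhgap6* and *Krtap6-3*.

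Several of the higher genes encode membrane or cytoskeletal proteins. *Notch3*, a Notch receptor of muscle progenitors and vascular mural cells, was at 6.57 and 6.95 in Ctrl-M, at 7.84 and 7.12 in STEE30-M and at 7.96 and 7.75 in STEE50-M, a log2 fold change of 0.91 (standard error 0.25). STEE30-M replicate 2 came closest to the controls. Of the 18 Notch pathway genes measured, *Notch3* was the only call, and the median of the list was 0.04. *Ank3*, which encodes the spectrin-binding adaptor ankyrin-G, went from 5.85 and 5.93 to 6.35, 6.73, 6.69 and 7.04 (0.81, standard error 0.21). *Cd24a*, a surface glycoprotein held by a GPI anchor, went from 5.16 and 5.37 to 5.97, 5.82, 6.00 and 6.34 (0.77, standard error 0.20). *Lrrc2*, a leucine-rich repeat gene, was at 5.56 and 5.71 untreated and at 6.45, 6.14, 6.44 and 7.06 treated. Its difference of 0.89 (standard error 0.25) was drawn furthest by STEE50-M replicate 2.

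Transcription factor genes were among the higher ones as well. *Mafg*, a small Maf protein that pairs with NRF2 and its relatives, was at 6.74 and 7.13 untreated and at 7.71, 7.46, 7.67 and 7.53 treated (0.66, standard error 0.19). *Casz1*, a zinc finger transcription factor, went from 7.04 and 7.13 to 7.56, 7.74, 7.77 and 7.76 (0.62, standard error 0.17), and *Zfp128*, another zinc finger gene, went from 6.12 and 6.26 to 6.74, 6.91, 6.84 and 7.01 (0.69). The treated arrays of *Casz1* and *Zfp128* lay close together. *Ttc39c*, a tetratricopeptide repeat gene, stood at 7.92 and 7.56 untreated and at 8.44, 8.38, 8.32 and 8.35 treated, so that its untreated arrays differed from each other more than its treated ones did. The odorant receptor gene *Olfr1044* had the smallest p of the 24 (unadjusted p = 0.000735), rising from 5.00 and 5.36 to 6.09, 6.02, 5.95 and 6.13. The hair protein gene *Krtap6-3* went from 6.34 and 6.53 to 7.37, 7.22, 7.05 and 7.10. Neither is known as a muscle gene. Of the 1448 receptor probe sets that set the background level 128 were called (8.84%, where 4.62% of all probe sets were). Calls were lost for *Ttc39c* without Ctrl-M replicate 2 (0.45, unadjusted p = 0.0798), for *Notch3* without Ctrl-M replicate 1 (0.72, unadjusted p = 0.0612) and for *Mafg* without Ctrl-M replicate 1 (0.46, unadjusted p = 0.0855).

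Among the lower genes, *Pigc*, a subunit of the enzyme that starts the synthesis of GPI anchors, had the largest moderated t. It was at 8.47 and 8.42 untreated and at 7.82, 7.70, 7.60 and 7.67 treated, a log2 fold change of -0.75 (standard error 0.16) with little spread in either group. *Arhgap6*, which encodes a GTPase-activating protein, stood at 6.00 and 6.05 untreated and at 5.38, 5.34, 4.95 and 5.11 treated (-0.83, standard error 0.19). *Ntm*, the neural adhesion gene neurotrimin, went from 6.17 and 6.31 to 5.60, 5.14, 5.74 and 5.32 (-0.79, standard error 0.21). The GPI-anchored product of *Ntm* and that of *Cd24a* thus had genes on opposite sides of the comparison. *Gorasp1*, which encodes the Golgi stacking protein GRASP65, stood at 7.09 and 7.34 untreated and at 5.95, 6.70, 6.36 and 6.43 treated (-0.86, standard error 0.22). *Tmem176b*, a membrane protein gene known from dendritic cells, had the largest difference of the 12, -0.88 (standard error 0.21), from 7.02 and 6.62 to 5.89, 5.88, 6.26 and 5.75.

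The other leading lower genes have varied roles. *Apaf1*, which encodes the scaffold of the apoptosome, stood at 9.46 and 8.99 untreated and at 8.77, 8.45, 8.44 and 8.37 treated (-0.72, standard error 0.20). It was the single call of 19 p53 targets, whose median was -0.01. *Mb21d1*, the gene of the cytosolic DNA sensor cGAS, went from 7.23 and 7.14 to 6.52, 6.59, 6.54 and 6.71 (-0.60, standard error 0.16). *Luc7l3*, a splicing factor gene, was the brightest of the 24, at 9.90 and 9.96 untreated and 9.34, 9.35, 9.34 and 9.44 treated (-0.56, standard error 0.16). Both genes had tight arrays in each group. *Serpinb6e*, from a family of intracellular protease inhibitors with near-identical neighbours that may share signal, stood at 6.40 and 5.79 untreated and at 5.17, 5.11, 5.12 and 5.60 treated (-0.85). *Pir*, which encodes the iron-binding nuclear protein pirin, went from 6.23 and 6.42 to 5.52, 5.57, 5.61 and 5.96 (-0.66, standard error 0.19). The calls of *Apaf1* and *Serpinb6e* were lost without Ctrl-M replicate 1 (-0.48, unadjusted p = 0.0914, and -0.54, unadjusted p = 0.0807), and that of *Pir* without Ctrl-M replicate 2 (-0.56, unadjusted p = 0.0597).

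Mitochondrial regulators split in direction, and *Ppargc1a* itself did not pass. *Ppargc1a* (chr5:51454249-52115853 of GRCm38.p6) was at 6.20 and 6.43 in Ctrl-M, at 6.65 and 6.36 in STEE30-M and at 6.70 and 6.80 in STEE50-M. STEE30-M replicate 2 lay between the untreated arrays, so the groups overlapped. The log2 fold change was 0.31 (standard error 0.19, 95% interval -0.11 to 0.74, unadjusted p = 0.13), with 0.19 at 30 µg/mL and 0.44 at 50 µg/mL. The interval holds both no difference and a fold near that of the leading genes. Its relative *Ppargc1b* stood at 9.22 and 9.48 untreated and at 9.68, 9.67, 9.96 and 9.50 treated, a difference of 0.35 (standard error 0.19, unadjusted p = 0.0953) without overlap.

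Of 27 measured genes of the PGC-1 family and mitochondrial biogenesis, 1 was higher at the thresholds, 0 were lower and 26 did not pass, where 4.53% of all 21154 genes passed (2.77% of those above background). The list's median was 0.02. The call was *Mterf4*, whose product guides a methyltransferase to the RNA of the mitochondrial ribosome. Its signals were 6.67 and 6.71 untreated and 7.29, 7.37, 7.20 and 7.61 treated (0.68, standard error 0.18). Without overlap but short of the thresholds, *Polrmt*, the mitochondrial RNA polymerase, had a difference of 0.34 (unadjusted p = 0.0712). *Tfam*, the factor that packages mitochondrial DNA, had one of -0.39 (9.22 and 9.20 against 8.81, 9.03, 8.60 and 8.86, unadjusted p = 0.0596). *Mterf3*, a negative regulator of mitochondrial transcription, had one of -0.35 (unadjusted p = 0.114). *Tfam* and *Polrmt* passed under other settings, *Tfam* without STEE30-M replicate 2 (-0.45, unadjusted p = 0.0376) and both with dim probe sets left out (unadjusted p = 0.0414 and 0.0476).

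*Mtfr2* and *Mfn1*, which act on mitochondrial shape, were lower. No list of fusion and fission genes was counted, so these calls do not describe such genes as a class. *Mtfr2*, a mitochondrial fission regulator, stood at 6.55 and 6.83 in Ctrl-M, at 5.66 and 6.04 in STEE30-M and at 6.14 and 5.91 in STEE50-M, a log2 fold change of -0.75 (standard error 0.20). *Mfn1*, a mitofusin that joins outer membranes, went from 11.32 and 11.58 to 10.91, 11.07, 10.75 and 11.07 (-0.50, standard error 0.18, unadjusted p = 0.0216). All 4 treated arrays of each gene lay under both untreated arrays. *Sucla2*, a subunit of succinyl-CoA synthetase in the citric acid cycle, was higher, from 6.10 and 6.22 to 6.92, 6.38, 6.64 and 6.94 (0.56, standard error 0.21). *Bcs1l*, which inserts the iron-sulphur subunit into respiratory complex III, was lower, from 8.39 and 8.52 to 7.65, 7.80, 7.87 and 7.99 (-0.63, standard error 0.17). The call of *Mfn1* was lost without Ctrl-M replicate 2 (-0.37, unadjusted p = 0.17) and without STEE50-M replicate 1 (-0.43, unadjusted p = 0.0501), and that of *Sucla2* without Ctrl-M replicate 1 (0.50, unadjusted p = 0.114) or Ctrl-M replicate 2 (0.62, unadjusted p = 0.0585).

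**Figure D3:**
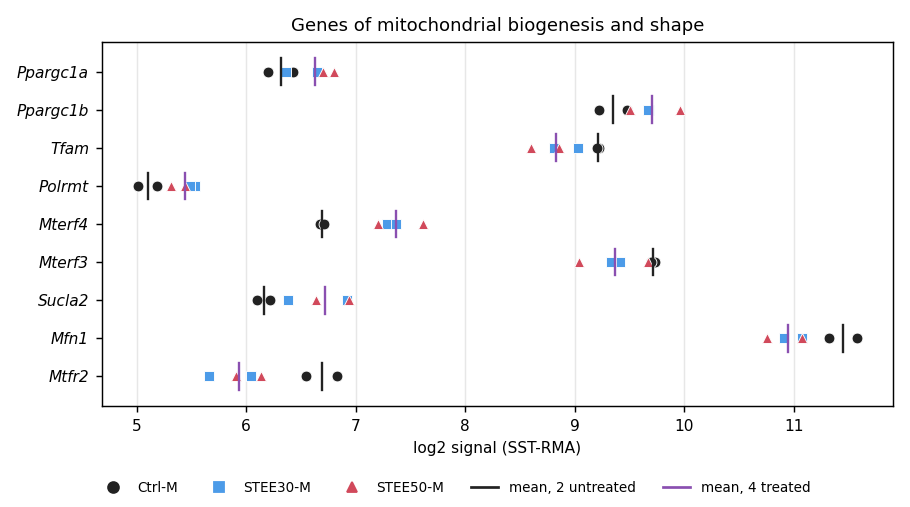
Log2 signal (horizontal axis) of 9 genes of mitochondrial biogenesis, metabolism and shape on each array, with circles for Ctrl-M, squares for STEE30-M, triangles for STEE50-M and bars at the means of untreated and treated arrays. *Ppargc1a* overlaps between the groups, *Mterf4* and *Sucla2* lie to the right of both controls, and *Mfn1* and *Mtfr2* to the left.

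*Mterf4*, *Mtfr2*, *Sucla2* and *Mfn1* belong to the genes that the study drew in its heatmap, which it chose on these same arrays, so their direction is not independent evidence. Of 38 such genes measured, 4 were higher and 9 were lower (median -0.29), and 29 of the 38 lay at or below background. The median turned to 0.115 with dim probe sets left out. Above background 2 were higher and 3 lower. Of the dim members that cleared the controls on all treated arrays, 2 are given here, chosen after their values were seen. *Fabp2*, the intestinal fatty acid binding protein, was at 3.44 and 3.21 untreated and at 4.32, 4.65, 4.45 and 3.91 treated (1.01, standard error 0.22). *Il22ra2*, a soluble receptor that binds IL-22, went from 3.71 and 3.26 to 2.55, 2.58, 2.65 and 2.60 (-0.89, standard error 0.18).

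The respiratory chain subunits did not pass. Of 36 complex I genes 0 were called, with a median of -0.03 and values from -0.30 to 0.37, and of 41 genes of complexes II to V 0 were called, with a median of -0.03 and values from -0.31 to 0.56. The smallest p among complexes II to V was that of *Cox6a2*, the complex IV subunit isoform of heart and skeletal muscle, at 8.48 and 8.51 untreated, 8.51 and 9.15 in STEE30-M and 9.07 and 9.48 in STEE50-M (0.56, standard error 0.25, unadjusted p = 0.0523). Its lowest treated array equalled its highest untreated one. *Cox8b*, a complex IV subunit of muscle and brown fat, came next (0.53, standard error 0.24, unadjusted p = 0.0558). In complex I the smallest p was that of *Ndufb7* (0.37, standard error 0.20, unadjusted p = 0.101). The median standard errors were 0.20 and 0.18, so differences of a size like these would often not be called.

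The promoters of 4 genes are shown because they bear on the factors named above: *Mterf4* and *Mtfr2*, both among the mitochondrial calls, and *Mafg* and *Pir*, of which 1 is a partner of NRF2 and the other a known NRF2 target in human cells. Sequences are from RefSeq (GRCm38.p6), the 250 bases before the start site, 5′ to 3′ on the gene's strand. Capitals mark any match, on either strand, to the NRF1 motif (GCGCA, any base, then GCGC), the antioxidant response element (ARE) motif TGACNNNGC, the cyclic AMP response element TGACGTCA or the TCF/LEF motif CTTTGA of Wnt signalling.
*Mterf4* (chr1:93305880-93306129, minus strand): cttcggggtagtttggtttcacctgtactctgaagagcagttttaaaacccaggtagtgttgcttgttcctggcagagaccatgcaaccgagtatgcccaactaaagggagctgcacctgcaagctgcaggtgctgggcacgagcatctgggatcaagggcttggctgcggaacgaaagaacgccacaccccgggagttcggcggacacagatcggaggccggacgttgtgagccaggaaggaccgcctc
*Mtfr2* (chr10:20347569-20347818, plus strand): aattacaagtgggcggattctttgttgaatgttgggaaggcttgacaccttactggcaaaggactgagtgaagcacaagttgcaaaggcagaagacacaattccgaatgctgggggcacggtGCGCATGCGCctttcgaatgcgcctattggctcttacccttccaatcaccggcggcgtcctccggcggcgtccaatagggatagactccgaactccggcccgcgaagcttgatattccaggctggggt
*Mafg* (chr11:120633548-120633797, minus strand): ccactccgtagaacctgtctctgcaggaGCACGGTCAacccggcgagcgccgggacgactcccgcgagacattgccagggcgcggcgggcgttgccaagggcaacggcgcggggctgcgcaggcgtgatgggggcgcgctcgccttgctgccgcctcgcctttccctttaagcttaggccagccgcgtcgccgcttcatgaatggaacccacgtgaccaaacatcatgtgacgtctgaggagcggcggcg
*Pir* (chrX:164269181-164269430, plus strand): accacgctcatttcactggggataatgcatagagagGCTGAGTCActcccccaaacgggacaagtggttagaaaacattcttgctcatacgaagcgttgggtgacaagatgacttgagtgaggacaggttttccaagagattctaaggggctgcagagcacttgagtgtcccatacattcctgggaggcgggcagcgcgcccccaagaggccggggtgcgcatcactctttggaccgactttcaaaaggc
The *Mtfr2* window held an NRF1 match starting at -128, and those of *Mafg* and *Pir* an ARE match each, at -222 and -214. *Mterf4* held none of the 4 motifs. Over 32851 promoter windows of this length, 3.74% held the NRF1 motif, 10.2% the ARE motif, 1.55% the cyclic AMP motif and 13.8% the TCF/LEF motif. Among the leading genes, 8 of the 12 higher and 12 of the 12 lower were matched, some with several start sites. An ARE match was found in 1 of those 8 and 4 of those 12, an NRF1 match in 0 and 1, a cyclic AMP match in 0 and 0, and a TCF/LEF match in 1 and 2. These counts take a match in any window of a gene, over 9 windows for the higher and 17 for the lower genes. The shares above are per window, so the counts are not directly comparable with them. A match is a string in a window and was not measured as a binding site.

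The NRF2 genes themselves did not pass. Of 26 measured, 0 were called, 7 had positive and 19 negative differences, and the median was -0.06. *Nqo1*, a quinone reductase that is a standard readout of NRF2, was at 8.16 and 8.35 untreated and at 7.65, 8.25, 8.61 and 7.94 treated (-0.14, 95% interval -0.72 to 0.44). *Hmox1*, heme oxygenase 1, was at 11.85 and 11.82 untreated and at 11.66, 12.10, 12.06 and 11.97 treated (0.11, 95% interval -0.30 to 0.53). Treated arrays of both genes lay on either side of the controls, and without STEE30-M replicate 1 the difference of *Nqo1* was 0.01. Of 10 aryl hydrocarbon receptor targets 0 were called. The highest value among them was that of *Cyp1b1*, a cytochrome P450, at 10.91 and 10.26 untreated and 10.85, 10.92, 11.76 and 10.82 treated (0.50, standard error 0.30, unadjusted p = 0.125).

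Cyclic AMP genes gave a single call. *Pde4b*, a phosphodiesterase that degrades cyclic AMP, was at 8.96 and 9.08 in Ctrl-M, at 9.54 and 9.23 in STEE30-M and at 10.50 and 10.11 in STEE50-M. The groups stood in the order of the dose with no overlap. The pooled difference was 0.83 (standard error 0.32), with 0.37 at 30 µg/mL and 1.29 at 50 µg/mL, and the doses differed by 0.92 (unadjusted p = 0.00346, adjusted p = 0.997). The pooled call was lost without Ctrl-M replicate 1 (0.77, unadjusted p = 0.115), without Ctrl-M replicate 2 (0.89, unadjusted p = 0.0742), without STEE50-M replicate 1 (0.61, unadjusted p = 0.0508) and without STEE50-M replicate 2 (0.74, unadjusted p = 0.0649). Of the 15 phosphodiesterase genes measured 1 was called (median 0.09), *Pde4c* being next at 0.39 (unadjusted p = 0.0716). The median was 0.23 without Ctrl-M replicate 1 and 0.30 without Ctrl-M replicate 2. Of 27 adenylyl cyclase and protein kinase A genes 0 were called, with a median of 0.02.

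Lipid genes gave 2 calls, both higher. *Dgat2*, which catalyses the last step of triglyceride synthesis, went from 5.07 and 5.15 to 5.83, 5.69, 5.62 and 5.68 (0.60, standard error 0.16). *Mlycd*, malonyl-CoA decarboxylase, which removes the inhibitor of mitochondrial fatty acid entry, went from 6.03 and 6.08 to 6.80, 6.76, 6.68 and 6.43 (0.61, standard error 0.18). Both kept a call without each array in turn. The lists they belong to did not move with them. Fatty acid and triglyceride synthesis held 1 call in 18 genes (5.56%, median -0.03). Fatty acid oxidation and uptake held 1 in 41 (2.44%, median -0.0025), where 4.53% of all genes were called. Of 23 sterol synthesis and uptake genes 0 were called, 6 had positive and 17 negative differences, and the median was -0.11 (0.02 at 30 µg/mL and -0.21 at 50 µg/mL). *Insig1*, a sterol sensor that is induced when sterol is made, was at -0.24 (unadjusted p = 0.244).

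The muscle structural genes were not called, and their treated and untreated arrays overlapped as a list. Of 40 genes of the sarcomere and contraction, 35 had positive and 5 negative differences, with a median of 0.23 where that of all genes was -0.01, and 0 were called. The list's mean signal was 12.42 and 12.62 in Ctrl-M, 12.39 and 12.76 in STEE30-M and 12.53 and 13.26 in STEE50-M. STEE50-M replicate 2 thus stood above the rest, and without it the median was 0.03. The list's median was 0.06 at 30 µg/mL and 0.42 at 50 µg/mL. *Myh3*, embryonic myosin heavy chain, was at 16.64 and 16.88 untreated and at 16.90, 16.94, 17.13 and 17.67 treated (0.40, unadjusted p = 0.126), and *Actn2*, α-actinin 2, reached 13.71 on STEE50-M replicate 2 where its other treated arrays were between 12.52 and 12.79. The 9 myotube markers had positive differences (median 0.24, and 0.07 without STEE50-M replicate 2), while the 7 reserve cell and myoblast markers had a median of 0.14. The part of the share of fused cells in these values was not tested.

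**Figure D4:**
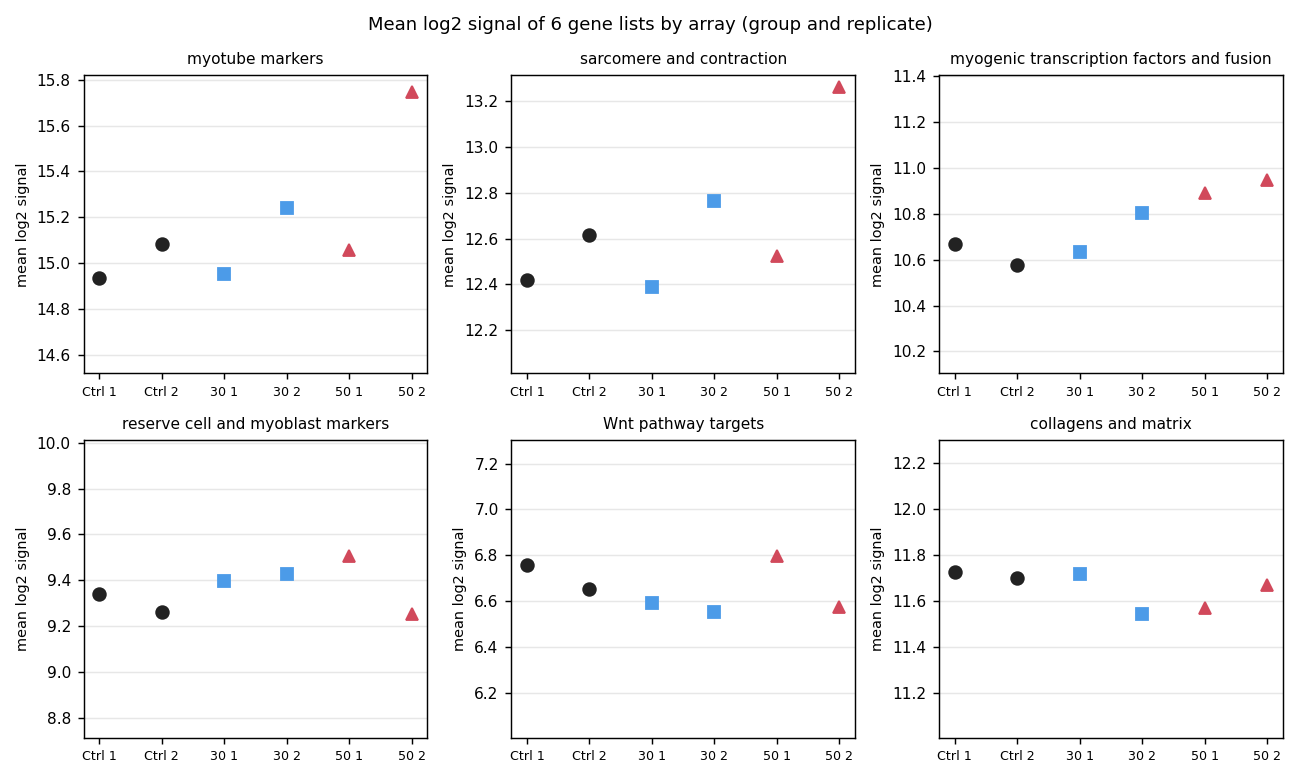
Mean log2 signal (vertical axis, the same span in each panel) of 6 gene lists on each array, by group and replicate number. In the myotube and sarcomere panels STEE50-M replicate 2 is at 15.75 and 13.26, above the other 5 arrays, while the other treated arrays lie at or near the untreated ones.

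Calls among muscle genes were in calcium handling and myogenic control. *Casq1*, calsequestrin, the calcium buffer of the sarcoplasmic reticulum, was at 9.58 and 10.10 untreated and at 9.89, 10.82, 10.75 and 11.90 treated (1.00, standard error 0.44, unadjusted p = 0.0484), with STEE30-M replicate 1 between the controls. The doses differed by 0.97 (unadjusted p = 0.0485). *Stac3*, needed to couple excitation to calcium release, went from 9.64 and 9.84 to 9.99, 10.08, 10.25 and 10.20 (0.39, standard error 0.17, unadjusted p = 0.0489). These were 2 of 22 genes of the calcium store and excitation-contraction coupling, 17 of them positive, with a median of 0.10. The call of *Casq1* was lost without either untreated array (0.74, unadjusted p = 0.239, and 1.26, unadjusted p = 0.061), STEE30-M replicate 2 (1.01, unadjusted p = 0.073), STEE50-M replicate 1 (1.03, unadjusted p = 0.069) or STEE50-M replicate 2 (0.65, unadjusted p = 0.0716). That of *Stac3* was lost without the same arrays, at 0.29, 0.49, 0.41, 0.35 and 0.37 in that order (unadjusted p = 0.256, 0.0712, 0.0621, 0.0969 and 0.0829), and in the fit of 3 group means (0.0557).

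*Myod1*, the myoblast determination factor, was the single call of 20 myogenic transcription factor and fusion genes, 17 of which were positive (median 0.20). It went from 8.84 and 8.88 to 9.10, 9.62, 9.36 and 9.31 (0.49, standard error 0.19, unadjusted p = 0.0287). *Six4*, a homeobox factor upstream of the MyoD family, went from 12.08 and 11.91 to 12.34, 12.30, 12.49 and 12.32 (0.37, unadjusted p = 0.0539). Against Ctrl-M, *Myod1* was at 0.50 at 30 µg/mL and 0.48 at 50 µg/mL, and *Six4* at 0.33 and 0.41. *Myod1* lost its call without Ctrl-M replicate 1 (0.47, unadjusted p = 0.114), Ctrl-M replicate 2 (0.51, unadjusted p = 0.0896) or STEE30-M replicate 2 (0.40, unadjusted p = 0.0616).

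Wnt targets gave calls in the lower direction. *Axin2*, a negative feedback gene that β-catenin induces, was at 6.33 and 6.11 untreated and at 5.66, 5.59, 5.67 and 5.75 treated (-0.55, standard error 0.17, unadjusted p = 0.00847). *Nkd2*, a Dishevelled-binding inhibitor of the pathway, went from 6.03 and 5.86 to 5.64, 5.50, 5.48 and 5.36 (-0.45, standard error 0.17, unadjusted p = 0.0261). Both lay close to the background level, and both sets of treated arrays were tight. *Notum*, a deacylase that inactivates Wnt proteins, cleared the controls by a smaller margin, from 5.79 and 5.79 to 5.53, 5.47, 5.51 and 5.47 (-0.30, unadjusted p = 0.0946). *Dkk2*, a secreted Wnt antagonist below background, had a difference of -0.55 (unadjusted p = 0.0673) and was chosen after its values were seen. Of the 16 targets measured, 0 were higher, 2 lower and 14 did not pass (12.5% called, where 4.53% of all genes were). The targets had a median of -0.10, 5 had positive differences, and the set was not tested. Their mean on STEE50-M replicate 1, 6.80, lay above both untreated arrays (6.76 and 6.65), so the 4 genes do not stand for the list. Of *Axin2*, *Nkd2* and *Dkk2*, whose promoters were in the table, 0 held the TCF/LEF motif in the 250 bases. The call of *Axin2* was lost without Ctrl-M replicate 1 (-0.44, unadjusted p = 0.0873), and that of *Nkd2* without Ctrl-M replicate 1 (-0.36, unadjusted p = 0.161), Ctrl-M replicate 2 (-0.54, unadjusted p = 0.0521) or STEE50-M replicate 2 (-0.41, unadjusted p = 0.0524) and with a variance prior following the signal (unadjusted p = 0.0648).

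Of the TGF-β and BMP genes, *Inhba* was lower and *Tgif2* higher at the thresholds. *Inhba*, which encodes the activin A subunit, was at 12.69 and 12.49 untreated and at 12.28, 12.26, 12.11 and 11.97 treated (-0.44, standard error 0.18, unadjusted p = 0.0354). *Tgif2*, a repressor of TGF-β-induced transcription, was higher, from 8.62 and 8.46 to 9.10, 9.52, 9.42 and 8.88 (0.69, standard error 0.22, unadjusted p = 0.01). *Tgfbr1*, the type I receptor, was at -0.41 (unadjusted p = 0.0529). These are 3 of 26 TGF-β and BMP genes, of which 1 was called higher, 1 was called lower and 24 were not called, with a median of 0.01. *Ctgf* and *Cyr61*, matricellular genes that serum and YAP induce, were at -0.43 and -0.42 (unadjusted p = 0.0544 and 0.0623). *Inhba* lost its call without either untreated array (-0.34, unadjusted p = 0.206, and -0.54, unadjusted p = 0.0578), STEE50-M replicate 1 (-0.42, unadjusted p = 0.0641) or STEE50-M replicate 2 (-0.37, unadjusted p = 0.0719), and *Tgif2* without Ctrl-M replicate 2 (0.61, unadjusted p = 0.0713).

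*Col12a1*, a collagen that lies on the surface of type I fibrils, had a larger difference on the STEE50-M arrays than on the STEE30-M arrays. It was at 12.95 and 12.79 in Ctrl-M, at 12.68 and 11.91 in STEE30-M and at 11.45 and 11.53 in STEE50-M (-0.98, standard error 0.32, unadjusted p = 0.0122). The 2 arrays of STEE30-M lay apart, and STEE50-M lay under both, the doses differing by -0.81 (unadjusted p = 0.0167, adjusted p = 0.997). *Tnc*, tenascin C, was at -0.44 (15.27 and 15.15 against 15.05, 14.80, 14.40 and 14.84, unadjusted p = 0.0623). Of 36 collagen and matrix genes *Col12a1* was the only call, 11 were positive and 25 negative, and the median was -0.09. Without Ctrl-M replicate 1 its difference was -0.90 (unadjusted p = 0.0689). Of 32 immediate early and serum response genes 0 were called, 23 were positive and the median was 0.05, so the lower *Ctgf* and *Cyr61* stood beside genes such as *Ier3*, at 0.36 (unadjusted p = 0.1).

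Inflammatory genes were called in both directions. *Bcl3*, a nuclear IκB protein, went from 5.41 and 5.09 to 5.83, 6.04, 5.83 and 5.75 (0.61, standard error 0.18, unadjusted p = 0.00739). *Il1b*, interleukin-1β, was at 5.36 and 5.23 untreated and at 5.79, 5.46, 5.91 and 5.59 treated (0.39, unadjusted p = 0.0643). Below background, *Cxcl5*, a neutrophil chemokine, was higher (4.31 and 4.30 against 4.95, 5.14, 5.94 and 4.77) and *Tnf* was lower (3.65 and 4.13 against 3.37, 3.50, 3.27 and 3.28), and the latter pair was picked with its values in view. *Bcl3*, *Cxcl5* and *Tnf* were the 3 calls of 30 NF-κB targets and cytokines (10%, where 4.53% of all genes were called), 2 higher and 1 lower. The median was 0.07, and the set was not tested. Calls were lost for *Bcl3* without Ctrl-M replicate 2 (0.45, unadjusted p = 0.0931), for *Tnf* without Ctrl-M replicate 2 (-0.29, unadjusted p = 0.244) and for *Cxcl5* without Ctrl-M replicate 1 (0.90, unadjusted p = 0.0554) or Ctrl-M replicate 2 (0.89, unadjusted p = 0.0576).

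*Ifi44*, an interferon-induced gene, was at 6.13 and 6.29 in Ctrl-M, at 5.84 and 5.58 in STEE30-M and at 5.32 and 5.28 in STEE50-M (-0.71, standard error 0.20, unadjusted p = 0.00676). It was the only call of 31 interferon-stimulated genes, whose median was -0.02, and was lost without Ctrl-M replicate 2 (-0.62, unadjusted p = 0.0555). *Stat2*, which carries the interferon signal to the nucleus, was at -0.34 (unadjusted p = 0.0919). The 4 leukocyte markers had means of 4.46 to 4.56 in Ctrl-M and 4.11 to 4.44 in the treated arrays, under the background level.

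Stress and growth lists gave few calls. *Chac1*, a glutathione-degrading enzyme induced by ATF4, was at 6.29 and 6.89 untreated and at 6.19, 6.28, 6.07 and 5.82 treated (-0.50, standard error 0.22, unadjusted p = 0.0478), and without Ctrl-M replicate 2 its difference was -0.20 (unadjusted p = 0.464). It was also lost without STEE30-M replicate 1 (-0.53, unadjusted p = 0.054), STEE50-M replicate 1 (-0.49, unadjusted p = 0.078) or STEE50-M replicate 2 (-0.41, unadjusted p = 0.102). *Slc7a11*, the cystine importer, and *Psph*, the last enzyme of serine synthesis, cleared the controls downward at -0.35 and -0.40 (unadjusted p = 0.065 and 0.0844). Of 24 ATF4 genes 1 was called and the median was 0.02. *Fbxo31*, a subunit of a ubiquitin ligase, was the single call of 28 FoxO, atrophy and autophagy genes, at 8.08 and 8.43 untreated and 8.42, 8.90, 9.0 and 8.88 treated (0.55, standard error 0.21, unadjusted p = 0.0298). It was lost without Ctrl-M replicate 1 (0.37, unadjusted p = 0.224), STEE30-M replicate 2 (0.51, unadjusted p = 0.0578), STEE50-M replicate 1 (0.48, unadjusted p = 0.0666) or STEE50-M replicate 2 (0.52, unadjusted p = 0.0571). *Gadd45a*, a stress-induced growth arrest gene of denervated muscle, was at 0.54 (unadjusted p = 0.0671), and it reached 12.94 on STEE50-M replicate 2, where the untreated arrays were at 11.77 and 11.90.

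Of 31 cell cycle and DNA replication genes 0 were called, 8 were positive and 23 negative (median -0.11). *Cdc20*, which activates the anaphase-promoting complex, was at 10.43 and 10.61 untreated and at 10.26, 10.28, 10.31 and 9.63 treated. Among 19 circadian genes, *Npas2*, a partner of BMAL1, was lower (5.97 and 5.69 against 5.38, 5.10, 5.36 and 5.63, -0.46, standard error 0.20, unadjusted p = 0.0427), and *Tef*, a dim clock output factor chosen after its values were seen, was higher (4.62 and 4.83 against 4.95, 5.19, 5.19 and 5.15, 0.40, unadjusted p = 0.0466). *Npas2* lost its call without either untreated array (-0.32, unadjusted p = 0.258, and -0.60, unadjusted p = 0.0513), either STEE30-M array (-0.47, unadjusted p = 0.0605, and -0.37, unadjusted p = 0.0912) or STEE50-M replicate 1 (-0.46, unadjusted p = 0.0689). *Tef* lost it without either untreated array (0.29, unadjusted p = 0.255, and 0.50, unadjusted p = 0.066), STEE30-M replicate 2 (0.37, unadjusted p = 0.0822), STEE50-M replicate 1 (0.37, unadjusted p = 0.0854) or STEE50-M replicate 2 (0.39, unadjusted p = 0.073). Lists of glycolysis (26 genes), heat shock and the unfolded protein response (20), insulin and IGF signalling (21), the proteasome (31) and cytosolic ribosomal proteins (28) held 0 calls each, with medians between -0.03 and 0.03.

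Over the 39 lists without that of the study, 795 different genes were measured, of which 13 were higher, 10 lower and 772 not called (2.89% called). Above background 19 of 684 were called (2.78%), 11 higher and 8 lower, where 2.77% of all genes above background were. The share of the lists was thus near the background, and the genes named from them are those with the smallest p of each.

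**Figure D5:**
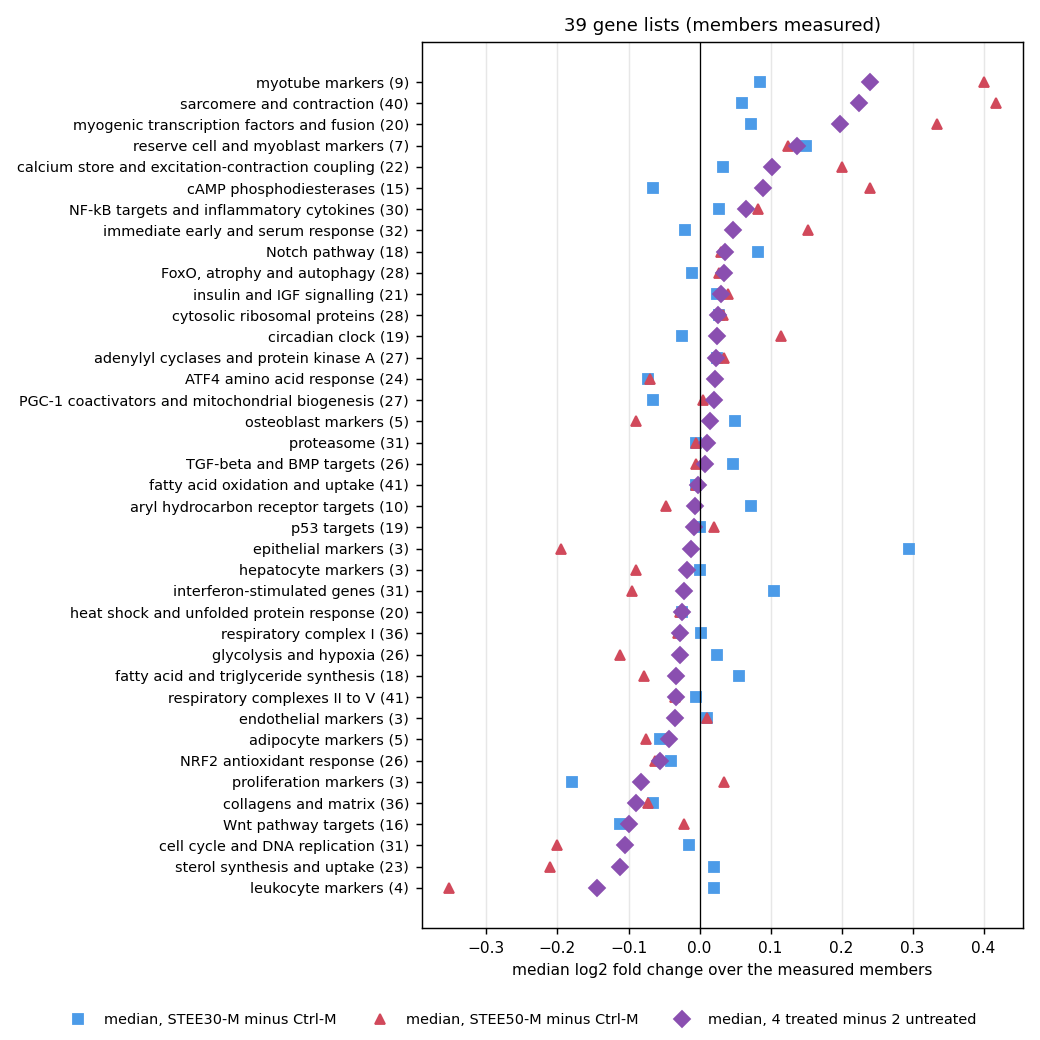
Median log2 fold change over the measured members of 39 gene lists (number measured in brackets), diamonds for the 4 treated against the 2 untreated arrays, squares for STEE30-M and triangles for STEE50-M against the same untreated arrays. Pooled medians run from -0.15 for the 4 leukocyte markers to 0.24 for the myotube markers, and those of the myotube, sarcomere and myogenic factor lists lie further right at 50 µg/mL than at 30 µg/mL.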

How the data were processed

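Total RNA of C2C12 myotubes was hybridised to 6 Clariom S Mouse arrays, and groups and replicate numbers follow the sample titles. The authors deposited log2 signals with 2 decimals, made by SST-RMA over the arrays together in Expression Console 1.4.1.46, per the file headers. Quantile normalization across arrays is part of that method and would hide a change shared by most genes. The series' value table held the same log2 values, equal in 173076 of 173076. A deposited table of group averages and of the authors' own fold changes and p-values was used only for gene symbols. The 6640 control rows were left out.

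The 22206 probe sets were tested in R 4.3.3 with limma 3.58.1 (lmFit, eBayes, prior degrees of freedom 5.55, 4 residual), treated against untreated, with Benjamini-Hochberg adjustment. The methods name a one-way ANOVA at an unadjusted p under 0.05 and a fold limit of 1.2, worded there as log2 and read here as linear. A fit of 3 group means gave each dose. One symbol was carried by 21367 probe sets, several by 836 and none by 3. Lists used the brightest probe set of a symbol (21154 genes, 862 of 892 listed names matched), and array symbols that are older names were matched through RefSeq. The members and lists were chosen with earlier results of these data known. Genes were named by rule: the 12 higher and 12 lower with the largest moderated t, 1 symbol that is no gene model, a mean above background and no overlap of the arrays, from each list at most 3 bright members with the lowest p, and *Ppargc1a*. A few genes named outside this rule are marked in the text, and *Ppargc1b*, *Mterf3*, *Sucla2*, *Nqo1*, *Hmox1*, *Insig1* and *Ier3* were also added after values were seen. A few genes that the rule or the lists hold are not reported here.

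Replicate numbers did not pair the samples (correlations of 0.02, 0.06 and -0.01 between groups). Data were simulated with 22206 independent probe sets, normal noise and each probe set's moderated variance. In each run 100 probe sets were changed by a log2 of 1 and 100 by 2. A log2 change of 1 was found in 62.1% at the adjusted threshold and in 98.7% at the study thresholds. Unchanged probe sets passed the latter in 5.01%. The moderated variances and the added changes of 2 differ from the real data, so these shares are not the power of this comparison. Alternatives covered the fit, the variance prior, array weights, normalization, dim probe sets, the fold limit, the replicate block and leaving out each array.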

Additional observations from a re-analysis of the deposited data

Results flagged for a closer look

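Within the 4 treated arrays, a single array stood apart from the others for 7 of the 76 named genes and 1 of the 40 list means, by the gap to its nearest neighbour as a share of the range (Dixon's test at its 95% limit). Chance alone gives about 1 such case in 20 groups. STEE50-M replicate 1 was high for *Cyp1b1*, at 11.76 where the other treated arrays were at 10.82 to 10.92, and for the mean of the Wnt targets, at 6.80 against 6.56 to 6.59. STEE50-M replicate 2 was high for *Serpinb6e*, at 5.60 against 5.11 to 5.17, and for *Luc7l3*, at 9.44 against 9.34 to 9.35, and low for *Cdc20*, at 9.63 against 10.26 to 10.31. STEE30-M replicate 1 was low for *Casz1*, at 7.56 against 7.74 to 7.77, and for *Tef*, at 4.95 against 5.15 to 5.19. STEE30-M replicate 2 was high for *Ctgf*, at 10.35 against 9.85 to 9.90.

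Among the named genes with a pooled call, 3 also differed between the doses at the study thresholds in limma, all with an adjusted p of 0.997. Genes without a pooled call were not screened for this. STEE50-M lay above STEE30-M by 0.92 for *Pde4b* (unadjusted p = 0.00346) and by 0.97 for *Casq1* (unadjusted p = 0.0485), and for *Col12a1* the difference was -0.81 (unadjusted p = 0.0167). For these genes the pooled value averages unlike doses, and the pooled calls were lost in the unmoderated 2-group test. Its unadjusted p was 0.126 for *Pde4b*, 0.192 for *Casq1* and 0.0826 for *Col12a1*.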

How the results depend on the processing

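Of 1360 values of the 76 named genes under the alternatives, 1213 kept their direction and side of the threshold, 93 fell short of it, 53 newly passed it and 1 changed sign: *Nqo1* ran from -0.31 without STEE50-M replicate 1 to 0.0117 without STEE30-M replicate 1. The count at the study thresholds, 1026, was 992 with 3 group means, 778 unmoderated, 1405 with array weights and 1054 with the replicate block (478 higher and 576 lower). Testing only the brighter probe sets, with the variance prior fitted to them alone, gave 487 (231 higher and 256 lower, 1427 without overlap). That is 4.04% of them, where the main fit called 342 of the same probe sets (2.84%). With a variance prior following the signal, 3.91% were called above background and 5.26% at or below it, against 2.84% and 6.74% in the main fit. The contrast of dim and bright probe sets thus depends on the prior. At a fold of at least 1.5 the count was 476 (219 higher and 257 lower), as fewer probe sets are allowed. Leaving out each array gave 726 to 1392 in all, 356 to 624 higher, 370 to 768 lower and 3857 to 8006 without overlap, which is easier to meet with fewer arrays. Of the 1026, 327 were also called without Ctrl-M replicate 1. With Ctrl-M replicate 2 left out 400 of them were, and with STEE30-M replicate 1 left out 772. No setting gave an adjusted p under 0.05, the smallest being 0.143 with array weights. Lower calls were 55.7% of all calls, 51.2% after quantile normalization and 49.9% with arrays centred on the median, and the cause was not tested. The samples share only a replicate number, so the block is no pairing. With identical probe sets counted once the count was 1012, and without gene models and probe sets of several symbols it was 860, alternatives chosen after seeing the data. Of the list medians, 654 values stayed within 1 SD of the main value and 23 moved past it. That SD is of the list's mean signal over the 4 treated arrays. A list with 1 array apart thus gets a wider limit, as the sarcomere list does from STEE50-M replicate 2.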

Other observations

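Of 2462 probe sets for gene models, 55 were higher and 96 lower (6.13% called), against 310 higher and 387 lower of 17457 other named genes (3.99%). Dim probe sets were called more often, and 767 of the gene models and 10773 of the others lay above background. At or below background the shares were 7.02% and 6.18%, and above it 4.17% and 2.64%. The windows given next were chosen after the values were seen and carry no test. At chr14:3029918-7568566, 10 of 73 probe sets were lower and 2 higher, with a median log2 fold change of -0.15. At chrX:25277487-35090316, 9 of 25 were lower and 1 higher (median -0.66), and at chrX:147789653-150336719, 5 of 10 were lower and 0 higher (median -0.53). Copies of 1 sequence can share probes and signal, so these probe sets are not independent. Most of them, 11, 12 and 2 excepted, lay at or below the background level.

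The odorant, vomeronasal and taste receptor probe sets, which muscle cells are mostly not known to use, held 73 higher and 55 lower calls of 1448 (8.84%), where all probe sets were called at 4.62% and other named genes at or below background at 6.18%. Of the receptor probe sets 73 lay above background. The median SD of a probe set was 0.15 in the 2 untreated arrays and 0.24 in the 4 treated arrays, which hold both doses. A median of SDs from 2 arrays tends to lie lower than one from 4, so these values cannot be compared directly.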
